A study of Mus musculus with 14 samples.

Results

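The HOX-A cluster genes Hoxa2, Hoxa3, Hoxa4, Hoxa5, Hoxa6, Hoxa7, Hoxa9, Hoxa10 and Hoxa11 were followed across cultures of mouse lineage-negative bone marrow cells. Lineage-negative cells are depleted of mature blood cells at the start, and the cultures also held transcripts of neutrophil, mast cell and macrophage markers, given below. The genes were taken by symbol, 9 of 55367 gene symbols in each of 2 count tables, and are numbered along the cluster by paralog group. All 9 were listed in both tables. They lie side by side on chromosome 6 over 83.4 kb (GRCm38, chr6:52162417-52245810, minus strand), with Hoxa2 at the 3′ end of the cluster and Hoxa11 toward its 5′ end.

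HOX genes encode homeodomain transcription factors whose order along the chromosome follows the order in which they are used along the body axis. In blood formation the cluster is active in stem and early progenitor cells and is switched off as myeloid cells mature. Trithorax-group proteins such as KMT2A, with its partner menin, keep HOX-A chromatin active, and Polycomb complexes keep it silent. HOXA9 and HOXA10 bind DNA with the TALE homeodomain partners PBX and MEIS, and persistent HOXA9 is a hallmark of several acute myeloid leukaemias.

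The first experiment compared cells given a lentivirus for luciferase, the control protein (n = 3), with cells given a lentivirus for SETBP1-D868N (n = 3), a SETBP1 form with a substitution of the kind found in myeloid neoplasms. The second experiment exposed SETBP1-D868N cells for 4 days either to DMSO, the vehicle (n = 4), or to PF-9363 at 2.5 µM (n = 4), an inhibitor of MYST-family histone acetyltransferases. All cells came from wild-type mice and grew in medium with stem cell factor, IL6 and IL3. Both groups of the second experiment are labelled as carrying the transgene. Poly(A) libraries were made from 500 ng of RNA for the luciferase comparison and from 100 ng for the PF-9363 comparison. The labels do not say whether replicates came from separate mice or transductions, so p-values measure the spread between these libraries, which may be technical. The cells were a mixed population, and in such bulk samples fewer cells of a type and less RNA per cell cannot be told apart.

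Total counts per library ran from 60147266 to 68730322 in the luciferase experiment and from 7083731 to 10359093 in the PF-9363 experiment. The experiments were fitted separately, and levels set side by side across them come from separate scalings. Setbp1 reads numbered 5 to 6 per luciferase library and 20 to 24 per SETBP1-D868N library, 0 to 2 with DMSO and 0 with PF-9363. In counts scaled to a common library total (CPM), that was 0.0744 to 0.101 CPM with luciferase, 0.306 to 0.362 with SETBP1-D868N and 0 to 0.198 with DMSO. The Setbp1 counts thus do not set the DMSO cells apart from luciferase cells, and the transgene of the second experiment rests on the labels. Whether transgene reads are counted as Setbp1 is not given in the sources used here. CPM summed over 9 stem and progenitor markers ran from 4909 to 5197 with luciferase and from 6604 to 6680 with SETBP1-D868N, with 6 markers higher and 3 lower. With DMSO that sum was 4836 to 5658 and with PF-9363 861 to 963, with 5 markers lower and 2 higher. The list holds granule protein genes of promyelocytes as well as stem and early progenitor genes, so its sum does not measure stem cells alone. Myb and Flt3, both on the list, averaged 196 and 13.5 CPM with luciferase. The 6 neutrophil markers summed to 20701 to 21446 with luciferase and 11159 to 13619 with SETBP1-D868N, where 6 of 6 were lower. In the second experiment their sums were 13797 to 16921 and 16439 to 17843. Sums over 6 mast cell and basophil markers were 3835 to 4042, 3296 to 3489, 909 to 1170 and 3936 to 4906 CPM in the order luciferase, SETBP1-D868N, DMSO and PF-9363. Those of 6 erythroid and megakaryocyte markers were 311 to 327, 331 to 357, 44.9 to 54.3 and 229 to 254, and those of 6 monocyte and macrophage markers 1518 to 1532, 1188 to 1228, 2345 to 2518 and 3377 to 3840. The 4 B-lymphoid markers stayed at or below 1.30 CPM in sum and the 4 T-lymphoid markers at or below 3.99. Ebf1, Cd3e and Cd3g had 0 counts throughout the second experiment. These marker changes moved with the groups, and their part in the HOX-A results was not tested.

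The members are compact genes apart from Hoxa3, which spans 44 kb because some of its transcripts start far upstream (chr6:52169062-52213336). The others were annotated (GENCODE M21) as Hoxa2 at chr6:52162417-52164831, Hoxa4 at chr6:52189671-52191753, Hoxa5 at chr6:52201754-52204587, Hoxa6 at chr6:52206288-52208722, Hoxa7 at chr6:52214491-52221854, Hoxa9 at chr6:52223100-52231089, Hoxa10 at chr6:52231197-52240854 and Hoxa11 at chr6:52242106-52245810. All are protein-coding, and the counts are of reads over whole genes, so no exon or UTR is resolved. Exons of Hoxa5, Hoxa6 and Hoxa10 overlapped no exon of another annotated gene. Of the exon bases of Hoxa3, 25.4% lay over opposite-strand genes (Hoxaas2, Hoxaas3, 5730596B20Rik and Gm29430) and 8.01% over the same-strand gene Gm28308. The overlapped share was 35.0% of Hoxa11 (Hoxa11os, opposite strand), 20.4% of Hoxa7 (Hoxaas3, opposite strand), 16.0% of Hoxa4 (Gm29430, opposite strand), 15.0% of Hoxa2 (Gm28308) and 1.52% of Hoxa9 (Mir196b). Whether reads were assigned by strand is not given in the sources used here, so counts of an overlapping pair may be shared between them. The setting may also differ between the 2 tables, which was not tested.

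Promoters of 3 members that changed in both experiments are shown because their windows of 250 bases hold no annotated exon. They are the bases before the RefSeq start on the minus strand (GRCm38.p6), 5′ to 3′, with motif matches in capitals. Of the 9 members, 8 had an entry, all but Hoxa4, and Hoxa10 had 2 starts. The first Hoxa10 window lies upstream of the gene (chr6:52240855-52241104) and the second in an intron of its longer transcript (chr6:52234940-52235189). The Hoxa9 window (chr6:52227371-52227620) lies in an intron of longer Hoxa9 transcripts, and the Hoxa5 window (chr6:52204588-52204837) upstream of that gene.
Hoxa5: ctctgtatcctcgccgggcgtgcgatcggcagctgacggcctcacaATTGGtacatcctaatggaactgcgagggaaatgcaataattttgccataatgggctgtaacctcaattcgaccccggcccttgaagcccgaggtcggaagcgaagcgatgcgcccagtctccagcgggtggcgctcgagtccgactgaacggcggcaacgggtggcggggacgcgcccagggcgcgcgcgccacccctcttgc
Hoxa9: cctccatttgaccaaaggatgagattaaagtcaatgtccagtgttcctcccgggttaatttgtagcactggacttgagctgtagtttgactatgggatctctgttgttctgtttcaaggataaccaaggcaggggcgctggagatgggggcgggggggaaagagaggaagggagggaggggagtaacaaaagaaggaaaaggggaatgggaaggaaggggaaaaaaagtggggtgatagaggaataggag
Hoxa10 upstream start: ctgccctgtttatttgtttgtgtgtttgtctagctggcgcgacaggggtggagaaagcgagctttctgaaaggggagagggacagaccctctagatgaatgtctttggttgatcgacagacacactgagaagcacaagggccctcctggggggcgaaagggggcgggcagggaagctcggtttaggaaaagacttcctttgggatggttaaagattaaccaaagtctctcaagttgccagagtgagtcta
Hoxa10 inner start: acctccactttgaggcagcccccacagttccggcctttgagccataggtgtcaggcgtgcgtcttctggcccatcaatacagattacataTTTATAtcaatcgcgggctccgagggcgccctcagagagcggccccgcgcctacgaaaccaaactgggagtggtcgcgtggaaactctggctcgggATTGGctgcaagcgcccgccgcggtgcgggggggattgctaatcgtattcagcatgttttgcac
Motifs were searched on both strands and compared with the 32851 windows of the same length in the promoter table. The TATA box, spelled TATAAA, occurs in 12.4% of those windows. The CCAAT box occurs in 33.8%. A joint site of HOXA9 and PBX, spelled TGATTTAT, occurs in 0.837%. The MEIS core, spelled TGACAG, occurs in 15.9%. None of these motifs contains another. Hoxa5 held a CCAAT box on the opposite strand 204 bases before its start. The inner Hoxa10 start had a TATA box match 160 bases before it and a CCAAT box match 64 bases before it, each on the opposite strand. Neither the Hoxa9 window nor the upstream Hoxa10 window held any of these letters. The Hoxa5 window had 63.6% G and C with 28 CpG dinucleotides, the inner Hoxa10 window 59.2% with 20, the upstream Hoxa10 window 51.6% with 7 and the Hoxa9 window 49.6% with 3. The medians of the table were 52.4% and 6. The 3 genes thus differed widely in CpG content, and these windows describe sequence only.

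In cells with SETBP1-D868N, HOX-A transcripts were higher along the whole stretch from Hoxa2 to Hoxa11. Among the tested members, Hoxa10 had the largest estimate, 5.94 on the log2 scale, and Hoxa4 the smallest, 0.91. Of the 9 members, 7 had enough counts for the edgeR test, and 7 were called higher at an adjusted p below 0.05, 6 of them by at least 2-fold. Hoxa3, Hoxa5, Hoxa6 and Hoxa10 met the minimum count only through their SETBP1-D868N libraries. These genes could be tested only because they were high there, so the number of calls depends in part on the filter. Among all 15794 genes tested, 24.5% were called higher, 1.34% higher by at least 2-fold, and 22.7% lower. Every SETBP1-D868N library exceeded every luciferase library for 9 of 9 members, among them the 7 tested. That separation was seen in 29.4% of all genes tested. Calls over all genes were 3869 higher and 3579 lower with TMM scaling, and 4905 and 2997 with library size alone, under which the 7 member calls held.

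**Figure D1:**
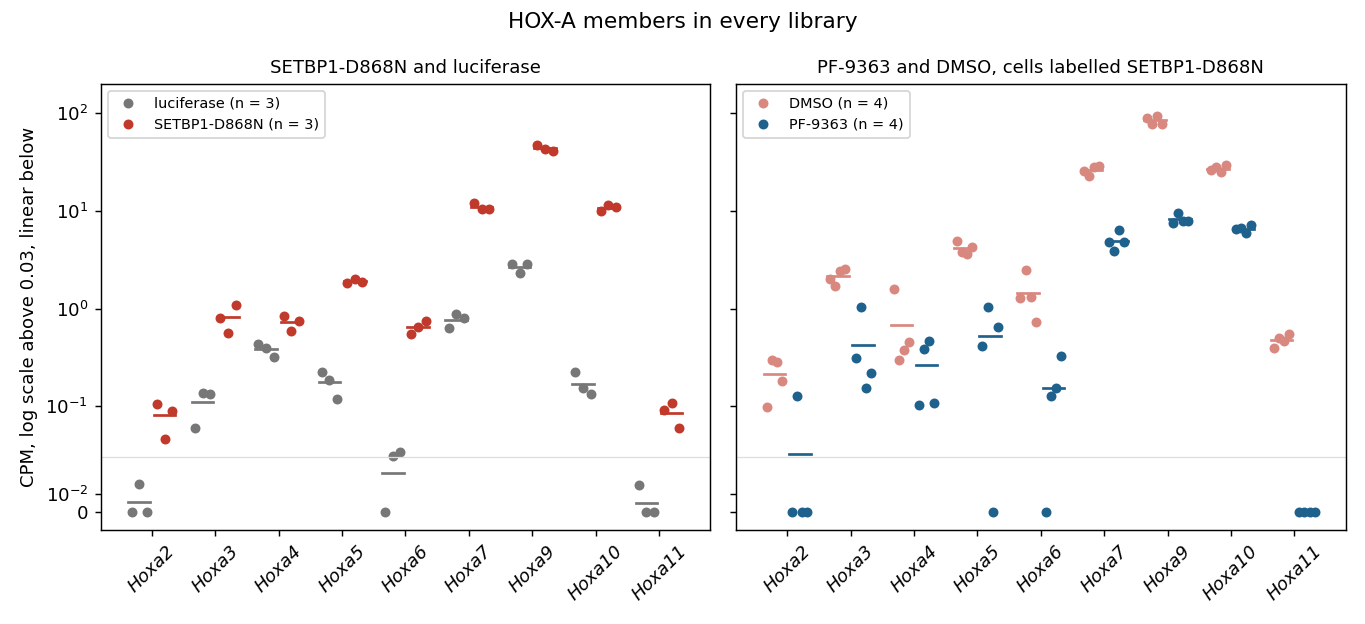
CPM of the 9 HOX-A members in each of the 14 libraries, on a logarithmic axis with a linear part near 0. Each point is 1 library and each short bar a group mean. Every SETBP1-D868N library lies above every luciferase library, and the PF-9363 libraries lie below the DMSO libraries except for Hoxa2 and Hoxa4.

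Hoxa9, the member most tied to myeloid leukaemia and the most abundant by count, had 190, 151 and 170 counts in the luciferase libraries and 3061, 2783 and 2736 in the SETBP1-D868N libraries. The groups were far apart and the replicates close together. Its level went from 2.67 ± 0.305 CPM (SD, n = 3) to 43.5 ± 2.83, a log2 fold change of 4.03 (SE 0.078, adjusted p = 7.25e-11).

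Hoxa10, which shares with HOXA9 the Abdominal-B type of homeodomain, had 15, 10 and 8 counts with luciferase and 647, 746 and 723 with SETBP1-D868N. All luciferase libraries were near the lower end of detection and the SETBP1-D868N libraries overlapped none of them. Its level rose from 0.171 ± 0.0467 to 10.7 ± 0.787 CPM, with an SE of 0.15 on the log2 fold change and an adjusted p of 1.84e-10. By size of increase it ranked 4 of the 15794 genes tested. The ratio of summed counts, scaled for depth, was 62.2-fold with an exact 95% interval of 44.2 to 90.7, which covers counting error only.

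Hoxa7, the next gene toward the 3′ side, had 42, 57 and 47 counts with luciferase and 796, 685 and 698 with SETBP1-D868N. Its libraries split by group without overlap. Hoxa7 rose from 0.764 ± 0.127 to 11.0 ± 0.945 CPM (log2 fold change 3.85, SE 0.12, adjusted p = 1.26e-09), a 14.5-fold ratio of summed counts that was close to the 16.3-fold ratio of Hoxa9.

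Hoxa6 and Hoxa5 sit in the middle of the cluster. Hoxa6 had 0, 2 and 2 counts with luciferase and 36, 42 and 50 with SETBP1-D868N, and its log2 fold change was 4.83 (SE 0.48, adjusted p = 6.68e-06). The luciferase side of that contrast rests on 4 counts in all. The interval of its ratio of summed counts, 31.1-fold, ran from 11.8 to 116 and takes in that of Hoxa10, so these members are not ranked apart. Hoxa5, a regulator of myeloid and erythroid fate choice, had 15, 12 and 7 counts with luciferase and 121, 130 and 124 with SETBP1-D868N. It rose by 3.41 on the log2 scale (SE 0.21, adjusted p = 2.02e-07), with no overlap between the groups. Ranked by increase, Hoxa6 stood at 7, Hoxa9 at 14, Hoxa7 at 18 and Hoxa5 at 25 of all genes tested.

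Hoxa4 and Hoxa3, on the 3′ side, had the smallest estimates of the tested members. The interval of the Hoxa3 count ratio, 4.71 to 12.4, overlapped that of Hoxa5, 7.53 to 15.7. Hoxa3 had 4, 9 and 8 counts with luciferase and 52, 37 and 72 with SETBP1-D868N, a log2 fold change of 2.87 (SE 0.37, adjusted p = 4.93e-05). Hoxa4 had 29, 26 and 19 counts with luciferase and 55, 39 and 49 with SETBP1-D868N. Its groups did not overlap, yet its log2 fold change was only 0.91 (SE 0.23, adjusted p = 0.00676), rank 263. The count ratio of Hoxa4 was 1.88-fold (exact 95% interval 1.41 to 2.52), an interval that lies below those of the 6 other tested members. Hoxa4 is flanked by genes that rose more, Hoxa3 on one side and Hoxa5 on the other.

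The outermost members, Hoxa2 and Hoxa11, were below the minimum for the main test. Hoxa2 had 0, 1 and 0 counts with luciferase and 7, 3 and 6 with SETBP1-D868N. Hoxa11 had 1, 0 and 0 counts against 6, 7 and 4. The SETBP1-D868N libraries were above the luciferase libraries for both genes, at only a few reads per library. With no minimum count, edgeR gave adjusted p-values of 0.0139 for Hoxa2 and 0.00945 for Hoxa11. The p-values of that unfiltered fit matched a normal test of the log2 fold change over its SE. They allow for no uncertainty in a spread estimated from so few libraries, so they may be too small. Their count ratios, 15.5-fold (2.41 to 651) and 16.5-fold (2.59 to 690), are too imprecise to be ranked against the other members.

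**Figure D2:**
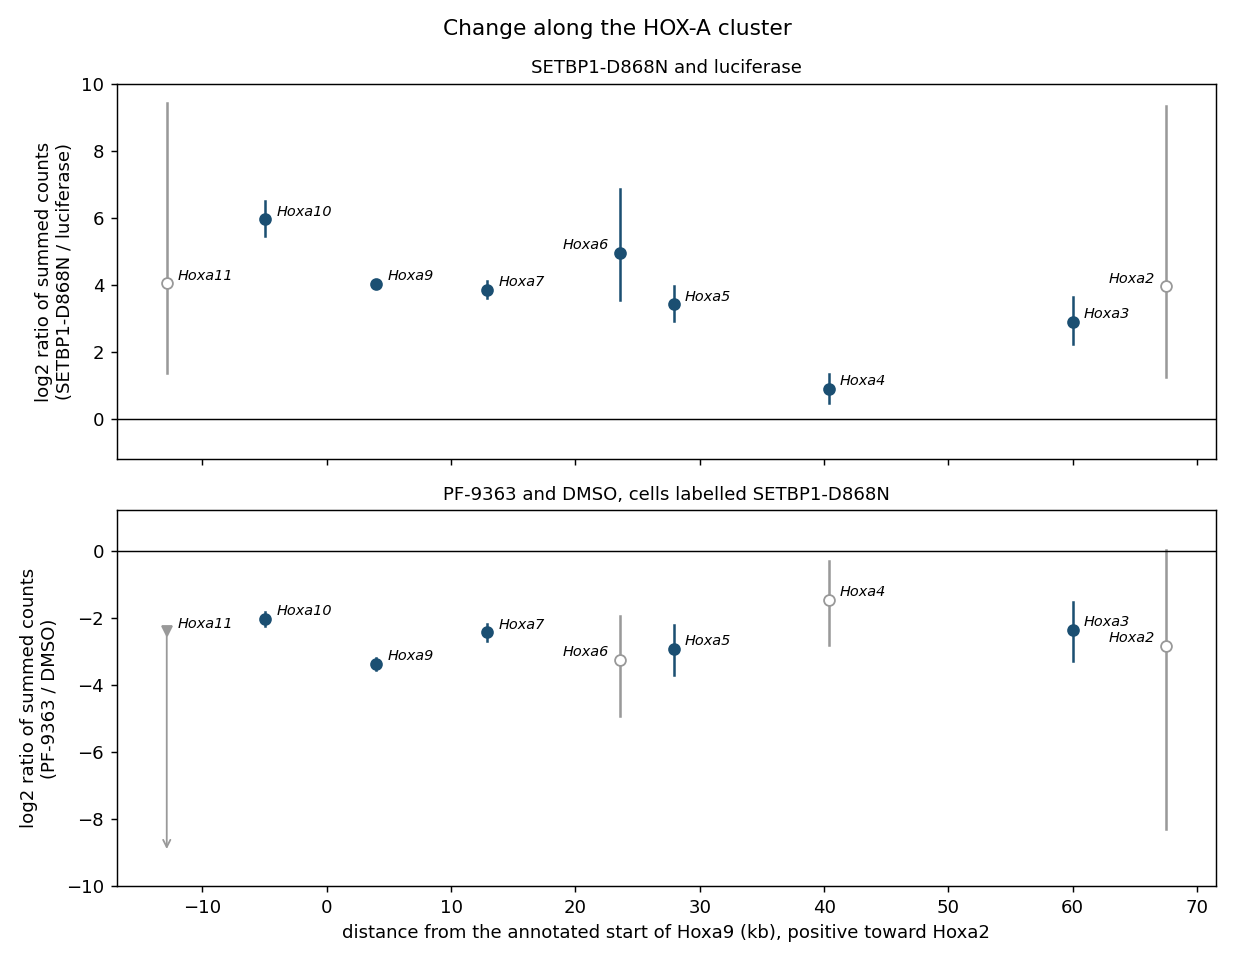
Log2 ratio of summed, depth-scaled counts for each member against its distance in kb from the annotated Hoxa9 start, positive toward Hoxa2, in both experiments. Points are placed at gene midpoints except Hoxa3, placed at its 3′ end. Vertical bars are exact 95% counting intervals, open grey symbols are members below the test's minimum count, and the arrow marks Hoxa11, which had 0 counts with PF-9363. Hoxa10 has the highest ratio with SETBP1-D868N (62.2-fold) and Hoxa9 the deepest drop among tested members with PF-9363 (10.3-fold).

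In cells labelled as SETBP1-D868N and treated with PF-9363, the tested members fell, from Hoxa3 on the 3′ side to Hoxa10 on the 5′ side. Hoxa9 fell by 3.37 on the log2 scale. Hoxa10, the tested member with the largest estimate for SETBP1-D868N, fell by 2.03. Of the 9 members, 5 had enough counts for the test and 5 were called lower, all by at least 2-fold. Hoxa3 and Hoxa5 met the minimum count only through their DMSO libraries, so here too the number of calls depends in part on the filter. PF-9363 was followed by widespread change, with 39.4% of 13456 tested genes called lower, 18.1% lower by at least 2-fold and 36.6% higher, so a call alone places a member among many. Separation of all PF-9363 libraries below all DMSO libraries was found for 7 of 9 members, among them the 5 tested, and for 36.3% of all genes tested. Ranked by decrease, Hoxa9 stood at 253, Hoxa5 at 381, Hoxa7 at 653, Hoxa3 at 721 and Hoxa10 at 963.

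Scaling by library size alone moved the median log2 fold change of all genes from -0.038 to -0.27 and the split of calls from 4921 higher and 5307 lower to 3775 and 6653. Under that scaling Hoxa9 was at -3.60, Hoxa5 at -3.13, Hoxa7 at -2.65, Hoxa3 at -2.54 and Hoxa10 at -2.26, all called lower.

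Hoxa9 had 903, 775, 989 and 843 counts with DMSO and 72, 74, 50 and 73 with PF-9363. Each treated library was about an order of magnitude below each control. The mean went from 84.0 ± 8.29 CPM (SD, n = 4) to 8.16 ± 0.941 (SE of the log2 fold change 0.11, adjusted p = 2.86e-21).

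Hoxa10 had 262, 281, 265 and 325 counts with DMSO and 63, 52, 38 and 66 with PF-9363. The groups did not overlap, and the treated libraries kept more of the control level than for Hoxa9. Hoxa10 went from 27.1 ± 2.08 to 6.57 ± 0.516 CPM (SE 0.13, adjusted p = 1.93e-14).

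Hoxa7 had 260, 228, 299 and 318 counts with DMSO and 47, 30, 41 and 44 with PF-9363, again without overlap. Its mean fell from 26.3 ± 2.72 to 4.97 ± 1.04 CPM, with a log2 fold change of -2.42 (SE 0.15, adjusted p = 8.58e-15). The depth-scaled count ratios of DMSO to PF-9363 were 10.3-fold for Hoxa9 (9.13 to 11.7), 5.40-fold for Hoxa7 (4.58 to 6.41) and 4.10-fold for Hoxa10 (3.54 to 4.76). The Hoxa9 interval lay above the other 2.

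Hoxa5 had 49, 38, 39 and 47 counts with DMSO and 4, 8, 0 and 6 with PF-9363, a log2 fold change of -2.90 (SE 0.40, adjusted p = 1.77e-07). PF-9363 library 3 had no Hoxa5 read. Hoxa3 had 20, 17, 26 and 28 counts with DMSO and 3, 8, 1 and 2 with PF-9363, a log2 fold change of -2.32 (SE 0.46, adjusted p = 4.62e-05). Its highest treated library, PF-9363 library 2, decided the size, since without it the value was -3.12.

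The 4 members below the minimum count were Hoxa2, Hoxa4, Hoxa6 and Hoxa11. Hoxa6 had 13, 25, 14 and 8 counts with DMSO and 0, 1, 1 and 3 with PF-9363, and Hoxa11 had 4, 5, 5 and 6 counts against 0 in every treated library. For both genes each treated library was below each control. With no minimum count, edgeR gave adjusted p-values of 8.05e-06 for Hoxa6 and 0.00117 for Hoxa11, which may be too small for the reason given for the first experiment. Taking 3 counts over the whole PF-9363 group as the limit that 0 counts allow, Hoxa11 was 5.28-fold lower. With the counting error of its 20 DMSO counts included, the exact 95% interval started at 3.91-fold. Hoxa4 had 16, 3, 4 and 5 counts with DMSO and 1, 3, 3 and 1 with PF-9363. DMSO library 1 stood apart at 1.59 CPM, and the remaining controls, at 0.299 to 0.454, overlapped the treated range of 0.103 to 0.467. Hoxa2 had 1, 3, 3 and 2 counts with DMSO and 0, 1, 0 and 0 with PF-9363, and its groups shared a value of 1. With no minimum count, the adjusted p was 0.119 for Hoxa4 and 0.164 for Hoxa2, so no difference was detectable at this depth for either.

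Ratios between nearby members (Hoxa10 to Hoxa9, Hoxa9 to Hoxa7, and Hoxa7 to Hoxa5, which have Hoxa6 between them) were taken within each library, which removes the scaling between libraries. The log2 ratio of Hoxa10 to Hoxa9 counts was -3.62, -3.85 and -4.33 in the luciferase libraries and -2.24, -1.90 and -1.92 in the SETBP1-D868N libraries. With DMSO it was -1.78, -1.46, -1.90 and -1.37, and with PF-9363 -0.19, -0.50, -0.39 and -0.14. The ratio was higher in every SETBP1-D868N library than in any luciferase library, and higher in every PF-9363 library than in any DMSO library. The mean difference was 1.91 in the first experiment (exact two-sided permutation p = 0.1, the smallest that 3 against 3 allows, 0.2 after adjustment over 6 ratios). In the second it was 1.32, or 2.50-fold (exact two-sided permutation p = 0.0286, the smallest that 4 against 4 allows, 0.0857 after adjustment). Neither adjusted value passed 0.05. The shift toward Hoxa10 had the same direction in the experiment where both genes rose and in the one where both fell.

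The ratio of Hoxa9 to Hoxa7 was 1.80 ± 0.38 (log2, n = 3) with luciferase and 1.98 ± 0.040 with SETBP1-D868N, and the groups overlapped (exact permutation p = 0.7). That small difference rested on luciferase library 2, without which it was -0.026. With PF-9363 the same ratio was 0.73 ± 0.42 against 1.67 ± 0.18 with DMSO, with no overlap (difference -0.95, exact permutation p = 0.0286, adjusted 0.0857). For Hoxa7 to Hoxa5, the ratio was 2.11 ± 0.61 and 2.53 ± 0.16 in the first experiment (exact permutation p = 0.3) and 2.66 ± 0.23 and 3.60 ± 1.96 in the second (exact permutation p = 0.514), with overlap in each. The second difference, 0.94, came to 0.015 without PF-9363 library 3, the library with no Hoxa5 read, and to 1.53 without PF-9363 library 2.

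**Figure D3:**
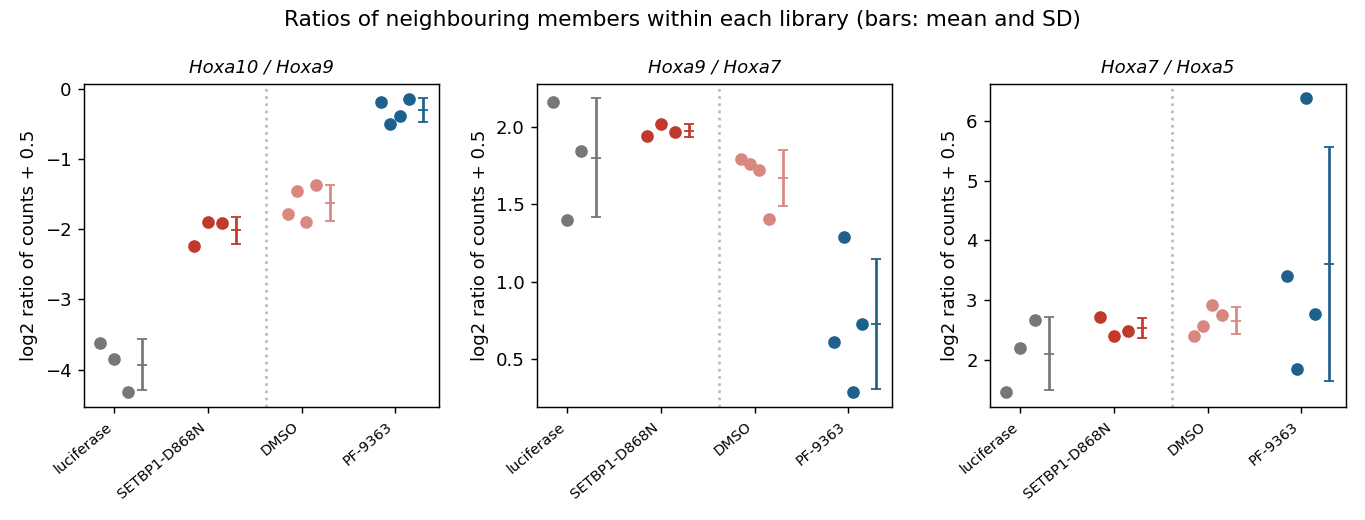
Log2 ratio of counts between nearby members within each library (Hoxa10 to Hoxa9, Hoxa9 to Hoxa7, Hoxa7 to Hoxa5), with 0.5 added to each count. Each point is 1 library, each bar the group mean with its SD, and the dotted line divides the experiments. Hoxa10 to Hoxa9 separates both pairs of groups, with means from -3.93 to -2.02 and from -1.63 to -0.31.

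Levels of different members were compared as CPM per kb of annotated exon. In luciferase cells Hoxa9 was highest at 0.479 CPM per kb, followed by Hoxa7 at 0.266 and Hoxa4 at 0.241, whose libraries overlapped. Hoxa10 was among the low members there, at 0.0522, and overlapped Hoxa5 at 0.0933. In SETBP1-D868N cells the order was Hoxa9 (7.79), Hoxa7 (3.84), Hoxa10 (3.28), Hoxa5 (1.01), Hoxa6 (0.741), Hoxa4 (0.454) and Hoxa3 (0.135), with no overlap between neighbours, and Hoxa2 and Hoxa11 overlapped at the bottom. With DMSO, Hoxa9 led at 15.1, and Hoxa7 (9.16) and Hoxa10 (8.28) overlapped. Below them came Hoxa5 (2.21), Hoxa6 (1.66), Hoxa4 (0.426) and Hoxa3 (0.360), each overlapping the next, then Hoxa11 (0.209) and Hoxa2 (0.121). With PF-9363, Hoxa10 (2.01) and Hoxa7 (1.73) overlapped, as did Hoxa7 and Hoxa9 (1.46), so Hoxa9 no longer stood above its neighbours. With the longest transcript as the length, these values were 2.56 for Hoxa10, 2.44 for Hoxa7 and 2.53 for Hoxa9. From Hoxa5 (0.279) down, each PF-9363 level overlapped the next. The longest transcript also raised Hoxa9 with DMSO from 15.1 to 26.0 CPM per kb and Hoxa3 from 0.360 to 0.835, which put Hoxa3 above Hoxa4 there and, with luciferase, above Hoxa6.

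As a share of the length-scaled HOX-A sum, Hoxa9 held 40.6% ± 4.87 with luciferase, 44.9% ± 1.51 with SETBP1-D868N, 40.1% ± 2.82 with DMSO and 24.7% ± 1.78 with PF-9363. The share of Hoxa10 was 4.41% ± 1.13, 18.9% ± 1.91, 22.1% ± 2.30 and 34.1% ± 3.05 in the same order. These shares rest on exon-union lengths. With the longest transcript as the length, Hoxa9 and Hoxa10 were nearly level with PF-9363, at 2.53 and 2.56 CPM per kb. Group means of Hoxa7 ran from 22.1% ± 1.19 to 29.4% ± 6.81. Whether strand settings affected its share was not tested. Hoxa4 held 20.4% ± 2.69 with luciferase and 2.62% ± 0.383 with SETBP1-D868N. Hoxa7, Hoxa9 and Hoxa10 together made up 67.6% ± 3.74 of the sum with luciferase and 86.0% ± 1.06 with SETBP1-D868N. The CPM summed over the 9 members were 4.31 ± 0.165 and 69.5 ± 2.98 in the first experiment and 147 ± 7.67 and 21.1 ± 1.33 in the second.

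**Figure D4:**
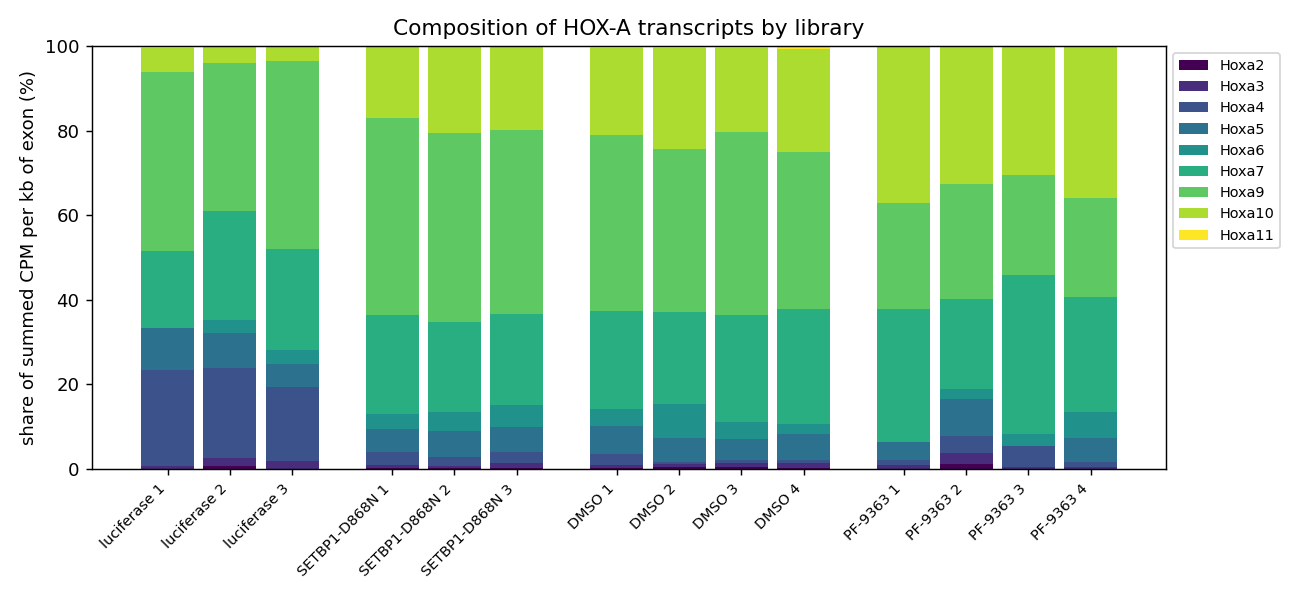
Share of each member in the length-scaled HOX-A sum, in percent, with 1 stacked bar per library (3 luciferase, 3 SETBP1-D868N, 4 DMSO, 4 PF-9363). Lengths are exon unions, and the shares depend on that choice. The Hoxa10 segment averages 4.41% with luciferase and 34.1% with PF-9363, and the Hoxa4 segment 20.4% with luciferase and 2.62% with SETBP1-D868N.

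Of the 47 genes annotated within 0.25 Mb of the cluster, 38 are not members, and 22 of these had 0 counts in all 14 libraries. Hoxa13, at the 5′ end, had 0, 2 and 0 counts with luciferase, 1, 0 and 0 with SETBP1-D868N and 0 throughout the second experiment. Hottip and Evx1, beyond it, had no reads. The increase with SETBP1-D868N was therefore called from Hoxa3 to Hoxa10. Hoxa2 and Hoxa11 had higher but low counts, below the minimum for the main test, and Hoxa13 had at most 2 counts in any library. Skap2, a protein-coding gene on the 3′ side of the cluster, moved the other way, by -0.15 with SETBP1-D868N (adjusted p = 0.00272) and by 0.79 with PF-9363 (adjusted p = 7.95e-13).

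No opposite-strand gene of the window was called in the first experiment. Hoxaas3, whose exons overlap Hoxa7 and Hoxa3, had 10, 22 and 9 counts with luciferase and 13, 16 and 13 with SETBP1-D868N (log2 fold change -0.0061, adjusted p = 0.992). In the second experiment it had 91, 116, 83 and 76 counts with DMSO and 12, 7, 5 and 7 with PF-9363 (log2 fold change -3.22, adjusted p = 1.36e-11). Hotairm1, an opposite-strand gene on the 3′ side, had 19, 14 and 12 counts with luciferase and 22, 14 and 13 with SETBP1-D868N (adjusted p = 0.863). With DMSO it had 5, 3, 5 and 4 counts and with PF-9363 7, 5, 5 and 1, which overlapped and were too few for the test. Hoxa11os had 0 counts in the luciferase libraries and 1, 4 and 2 with SETBP1-D868N, then 3, 1, 1 and 2 with DMSO and 0 with PF-9363. Of the 38 other genes of the window, 5 could be tested in the first experiment, and Skap2 was the 1 that was called.

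Genes of the other HOX clusters were mostly below the minimum count. Of 28 in the files, 3 could be tested with SETBP1-D868N and 2 with PF-9363. Hoxb2 rose by 1.25 on the log2 scale with SETBP1-D868N (adjusted p = 0.0224), from 0.108 ± 0.0524 to 0.264 ± 0.0333 CPM. Hoxb4, a regulator of stem cell self-renewal, stood at 9.11 ± 0.876 and 9.19 ± 0.928 CPM (log2 fold change 0.012, adjusted p = 0.926). Hoxb3 was at 1.82 ± 0.0572 and 2.16 ± 0.179 CPM (adjusted p = 0.116). With PF-9363, Hoxb3 fell by 0.44 (adjusted p = 0.0442, or 0.0574 with RLE scaling) and Hoxb4 was at -0.20 (adjusted p = 0.274, or called lower at -0.43 with library size alone). Hoxb5, below the minimum count and named after its values were seen, was at 0.00562 ± 0.00973 CPM with luciferase and 0.162 ± 0.0542 with SETBP1-D868N. It was at 0.430 ± 0.247 with DMSO and 0.0271 ± 0.0542 with PF-9363. In luciferase cells Hoxb4 was above Hoxa9 in CPM and in SETBP1-D868N cells far below it.

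Of 9 TALE cofactor genes, which encode the DNA-binding partners of HOX proteins, 3 rose and 2 fell with SETBP1-D868N (median log2 fold change -0.034, against 0.0043 for all genes). Meis1 rose by 1.09, from 24.9 to 52.9 CPM, Pbx4 by 1.21 and Pbx3 by 0.56. Meis2 fell by 1.29 at a very low level, from 0.212 to 0.0861 CPM. With PF-9363, 1 of 6 tested rose and 2 fell (median -0.090, against -0.038 for all genes). The 1 that rose was Meis1, by 0.34, a call lost with library size alone, where it was at 0.11. Over all genes tested, 24.5% were called higher and 22.7% lower with SETBP1-D868N. With PF-9363 those shares were 36.6% and 39.4%. Pknox2 fell by 0.72.

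Among 12 genes of KMT2A complexes and of elongation factors that act with them, 7 rose and 1 fell with SETBP1-D868N, with a median of 0.15. With PF-9363, 6 rose and 5 fell (median 0.053, or -0.18 with library size alone). Kmt2a itself rose by 1.16 and Men1, which encodes menin, fell by 1.28. Of 14 genes of MYST acetyltransferase complexes, the family that PF-9363 inhibits, 4 rose with SETBP1-D868N (median 0.050), against 8 with library size alone (median 0.099) and 3 with RLE scaling. With PF-9363, 8 rose and 6 were not called (median 0.41), and under library size alone 7 were higher and 3 lower. Jade2 rose by 1.53, Brpf3 by 1.35 and the acetyltransferase gene Kat6a by 0.97. Of 15 Polycomb genes, 7 rose and 1 fell with SETBP1-D868N (median 0.16), among them Rnf2 at 0.33 and Mtf2 at 0.29. With PF-9363, 4 rose and 7 fell (median -0.39), or 3 and 10 with library size alone (median -0.62). Ezh2, the main Polycomb methyltransferase of dividing cells, fell by 1.87 and Phf19 fell by 1.51, while Bmi1 rose by 1.99. Beside these lists, 24.5% of all genes tested were called higher and 22.7% lower with SETBP1-D868N. With PF-9363 36.6% were called higher and 39.4% lower, so a call alone places a regulator among many.

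Genes described as HOXA9 and MEIS1 targets in leukaemia numbered 16. With SETBP1-D868N, 12 rose and 3 fell (median 0.33), where 24.5% of all genes tested were called higher and 22.7% lower. Eya1 rose by 4.02, Mecom by 1.08, the progenitor regulator Myb by 0.82, Lmo2 by 0.56 and Sox4 by 0.54. With PF-9363, 2 rose and 10 fell (median -0.85), where 36.6% of all genes tested were called higher and 39.4% lower. With library size alone, 2 rose and 13 fell (median -1.07). The log2 fold changes were -2.71 for Myb, -2.55 for Myc and -1.86 for Flt3, against 2.11 for Bcl2, which protects cells from death. Not all members mirrored the first experiment, since Flt3 had also fallen there by 0.29 and Mecom also rose with PF-9363, by 1.17. Eya1 was at -0.030 with PF-9363 (adjusted p = 0.795), or called lower at -0.26 with library size alone. Normal progenitors also express Myb and Flt3. Both genes are on the stem and progenitor marker list as well, so the fall of that sum with PF-9363 is not separate from theirs. The part of cell composition in these changes was not tested.

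Outside the cluster and its window of 0.25 Mb, the genes whose levels across the 14 libraries were most like Hoxa9 were Hao1, Adgrl4, Six4, Vcam1 and Tmem215, out of 11041 candidates, by the distance between log2 levels centred within each experiment. Pearson correlations, given as a description over libraries that share the 2 experiments and their depths, were 0.963, 0.946, 0.925, 0.932 and 0.985. Hao1 had log2 fold changes of 3.59 with SETBP1-D868N and -3.18 with PF-9363, beside 4.03 and -3.37 for Hoxa9. For Hoxa10 the nearest outside that window were Hao1, Cacna2d1, Eya1, Rhoj and Adgrl4, with correlations of 0.900, 0.933, 0.922, 0.914 and 0.791. Cacna2d1 (7.86 and -0.13), Eya1 (4.02 and -0.030) and Rhoj (3.24 and 0.0032) had high values with SETBP1-D868N. Their values with PF-9363 were near 0 under TMM scaling.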

How the data were processed

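Poly(A) RNA was sequenced from 14 libraries, 3 luciferase and 3 SETBP1-D868N in one experiment and 4 DMSO and 4 PF-9363 in the other. The deposited values are raw read counts per gene symbol, 1 table per experiment. STAR, DESeq2 and GRCm38 (mm10) are named in the submitters' processing notes, and the counter, annotation and strand setting are not given in the sources used here. Genes were kept by filterByExpr (minimum count 10, minimum total 15), scaled by TMM, and tested per experiment with edgeR 4.0.16 (R 4.3.3) quasi-likelihood with robust estimation and Benjamini-Hochberg adjustment over all genes tested, threshold 0.05. CPM used the same scaled totals. Gene lengths were exon unions of GENCODE M21. Ratios within a library used log2 after adding 0.5 to each count, with exact permutation tests adjusted over 6. Count ratios carry exact 95% intervals, which cover counting error only. Replicate numbers did not pair libraries, with correlations of deviations from -0.0968 to -0.0369 in the first experiment and from -0.0402 to 0.00753 in the second. The scripts were tested on simulated data. Named genes were all 9 members, the genes within 0.25 Mb that passed a test with set landmarks, at most 5 called genes of each list by size of change, and the 5 nearest profiles of Hoxa9 and Hoxa10. Members and lists were chosen with earlier results of these data known. Sequences are from RefSeq. Alternatives were RLE and library size scaling, other count minimums, DESeq2 1.42.0, limma-voom (limma 3.58.1), no robust estimation, a replicate block and leaving out each library. Some genes of the locus and of the marker lists are not reported here.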

Additional observations from a re-analysis of the deposited data

Results flagged for a closer look

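In 17 groups of 4 libraries, a library far from the other 3 was looked for by Dixon's test at 95%, which chance alone flags in about 1 of 20 groups, and 2 groups had one. Hoxa4 was at 1.59 CPM in DMSO library 1, and the group mean of 0.679 was 0.376 ± 0.0771 (SD) without that library. Hoxa2 was at 0.129 CPM in PF-9363 library 2, where it had 1 count against 0 in the other 3.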

How the results depend on the processing

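The 12 member fold changes kept their direction and their side of the threshold in 178 of 178 alternative values. With no minimum count, edgeR called 9 members higher in the first experiment and 7 lower in the second. The p-values of that fit allow for no uncertainty in the estimated spread. Over all genes, the same fit called 3945 higher and 3823 lower in the first experiment. In the second, 5627 genes were called higher and 5939 lower, so a call alone places a member among many. Without 1 library at a time, 7 members stayed called higher, and 5 to 6 were called lower, the added one being Hoxa6 where the smaller design let it pass the filter. Genes called over the whole table ran from 6436 to 7086 and from 10013 to 10261. The Hoxa9 to Hoxa7 ratio with SETBP1-D868N reversed to -0.026 without luciferase replicate 2, and its leave-one-out range was -0.026 to 0.36. The cause was not tested. With the replicate number as a block, the counts of genes called were 6640 and 10124, against 7448 and 10228 without it, and the members called stayed at 7 and 5. Depth was lower in the PF-9363 experiment, where Hoxa2, Hoxa4, Hoxa6 and Hoxa11 fell below the minimum count.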

Other observations

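The proportion of Hoxaas3 to Hoxa7 reads set the SETBP1-D868N libraries apart and overlapped among the other groups. Within the first experiment Hoxa7 was called higher with SETBP1-D868N and Hoxaas3 was not called. Hoxaas3 had 19.1 to 38.6 counts per 100 Hoxa7 counts in luciferase libraries and 1.63 to 2.34 in SETBP1-D868N libraries, then 23.9 to 50.9 with DMSO and 12.2 to 25.5 with PF-9363. The gene 5730596B20Rik had 0 counts in all 6 libraries of the first experiment, and 0, 13, 8 and 8 with DMSO and 0, 1, 0 and 0 with PF-9363 in the second, which was sequenced less deeply. Gm29430, whose exons overlap Hoxa3 and Hoxa4, likewise had 0 counts in the first experiment, 1, 2, 2 and 6 with DMSO and 0, 0, 2 and 1 with PF-9363. The DMSO libraries are labelled as SETBP1-D868N cells too, but come from a separate experiment and library preparation. The 2 tables may also have been counted with different strand settings, which the sources used here do not give and which was not tested. Differences between experiments in the opposite-strand values, and in genes they overlap such as Hoxa7, are therefore given as description only.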
